A study of Rattus norvegicus with 12 samples.

Results

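The genes described here were listed as markers of the myeloid cells of the rat mammary gland, which are macrophages, monocytes and granulocytes. Whether each was read from such cells in these whole glands was not tested. A list of 51 genes was named for macrophages, for inflammatory monocytes, for granulocytes or for several of these cells together (shared myeloid genes). A gene was measured where an array probe set, a group of probes read as 1 value, carried its symbol and no other. That held for 48 of the 51, among 15310 probe sets with a single symbol and 29214 probe sets in all. The 48 were 17 macrophage, 10 inflammatory monocyte, 3 granulocyte and 18 shared myeloid genes, and each had 1 such probe set. All 48 also passed the filter on low values, which left 23371 probe sets to test. *Msr1*, *Ms4a6a* and *Itgax* had no probe set of their symbol alone and are not analysed here.

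Whole mammary glands came from 12 female Lewis rats, 3 in each of 4 groups, and every rat was ovariectomized (ovx) at about 10 weeks of age. From 14 days later the rats received 3 subcutaneous treatments 24 hr apart and were killed 24 hr after the last of them, and the labels give 48 h of treatment. The vehicle group received the DMSO and castor oil mixture in which the compounds were dissolved. The E2 group received 17β-estradiol, the main ovarian estrogen, at 4 μg/kg/day. The 3-MC group received 3-methylcholanthrene, a polycyclic aromatic hydrocarbon that activates the aryl hydrocarbon receptor (AHR), at 15 mg/kg/day, and the E2 + 3-MC group received both doses. No rat had ovaries at treatment, so vehicle stands for a gland without ovarian estrogen. Several glands of both sides were frozen for RNA in each rat, so each array reads 1 rat and the replicates are rats.

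Macrophages arise from circulating monocytes or from cells seeded before birth, and in the mammary gland they lie around ducts and end buds and in the fat, where they clear dying cells and remodel matrix. Monocytes and granulocytes arrive from the blood along chemokine gradients and carry receptors for microbial products and for antibody. Many of their genes are under the transcription factor PU.1, encoded by *Spi1*, a member of the list.

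The arrays were Affymetrix Rat Gene 1.0 ST, and the authors' linear PLIER intensities were used. A log2 change is a difference between group means of log2(intensity + 16), which understates the change of dim probe sets. To pass a comparison, a probe set needed a change of 1.5-fold or more and an adjusted p (Benjamini-Hochberg, over the 23371 tested) under 0.05, in 1 limma model of the 4 groups. All tests were two-sided. The array medians ran from 85.7 to 109.5, and arrays correlated at 0.952 to 0.988 with each other. All 21 luminal epithelium markers of the gland passed the filter on low values. The rats also differed widely in skeletal muscle genes, whose levels are given with the results.

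Promoters of 4 members are shown because the genes carry the patterns described below, an Fc receptor with 1 very high 3-MC rat, a complement gene with little spread, a lysozyme and a calgranulin with very wide spread. The sequences are from RefSeq (GRCr8) and run, 5′ to 3′ on the gene's strand, from 150 bases before the annotated start to 20 bases after it. Capitals mark GAGGAA, a short form of the sequence bound by PU.1, or its reverse complement TTCCTC.
*Fcgr3a*, chr13:85782486-85782655, plus strand: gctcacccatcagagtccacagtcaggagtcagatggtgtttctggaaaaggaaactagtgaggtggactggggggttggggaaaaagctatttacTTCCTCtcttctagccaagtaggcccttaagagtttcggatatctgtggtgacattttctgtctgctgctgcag
*C1qb*, chr5:154407808-154407977, minus strand: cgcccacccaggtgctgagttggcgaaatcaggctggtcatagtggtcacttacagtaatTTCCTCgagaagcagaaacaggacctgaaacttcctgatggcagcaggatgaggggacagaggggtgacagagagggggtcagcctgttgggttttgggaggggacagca
*Lyz2*, chr7:54797992-54798161, minus strand: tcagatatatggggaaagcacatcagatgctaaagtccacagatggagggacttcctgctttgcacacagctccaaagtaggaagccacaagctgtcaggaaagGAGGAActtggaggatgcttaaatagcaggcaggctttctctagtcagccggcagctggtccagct
*S100a9*, chr2:178490603-178490772, minus strand: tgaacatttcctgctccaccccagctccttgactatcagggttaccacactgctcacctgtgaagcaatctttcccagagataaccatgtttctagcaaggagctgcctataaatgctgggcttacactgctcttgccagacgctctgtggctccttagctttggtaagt
The stretches of *Fcgr3a*, *C1qb* and *Lyz2* hold 1 match each and that of *S100a9* holds 0, although its 300-base promoter holds 1 that is not within this stretch. A 300-base promoter was listed for 36 of the 48 members. Of these 36, 24 hold GAGGAA on either strand (66.7%), against 27.6% of all 33469 promoters of that length. In AGGAAG, which overlaps GAGGAA by 5 letters, the members reached 66.7% against 34.5% of all promoters. Of the 12 motifs searched, some not tied to PU.1 were also more frequent in members. TTNNGNAA, a loose form of the C/EBP sequence, was in 69.4% against 41.3% of all promoters. The NF-κB form GGGNNTTCC was in 11.1% against 5.92%, and TATAAA in 19.4% against 14.2%. These shares were not tested. The AHR core GCGTG was present in 4 of 36 members, *Mpeg1*, *Ccr1*, *Ccr2* and *Csf1r* (11.1% against 29.7% of all promoters). The short estrogen receptor sequence TGACC was in 13 of 36 (36.1% against 40.5%), and the full palindromic estrogen response element in 0 of 36 and in 0.0269% of all promoters. A match is only a match of letters, and the absence of one says nothing about the factor.

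In the genome several members are neighbours. *C1qb*, *C1qc* and *C1qa* lie at chr5:154402276-154419933, *Tnf*, *Lst1* and *Aif1* at chr20:3626685-3657341, and *S100a8* and *S100a9* at chr2:178464095-178490622 (GRCr8). *Fcgr2b* and *Fcgr3a* lie at chr13:85725897-85792656 and *Ccr1* and *Ccr2* at chr8:132433711-132619106. Such neighbours are not independent members.

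The members varied together from rat to rat, and they did so inside the groups as well as between them. The level of all 48 in a rat, their median log2 difference from the vehicle mean, was -0.18, -0.66 and 0.78 in vehicle rats 1 to 3. It was -0.54, -0.54 and -0.35 in the E2 rats, 1.08, -0.23 and 1.13 in the 3-MC rats, and 0.10, 0.95 and 0.85 in the E2 + 3-MC rats. The 3 E2 rats lay close together and below every E2 + 3-MC rat, while vehicle rat 3, 3-MC rat 2 and E2 + 3-MC rat 1 lay apart from the other two of their groups. Without E2 + 3-MC rat 1 the median log2 change of E2 + 3-MC against E2 over all members was 1.37 in place of 1.10. Without E2 + 3-MC rat 2 it was 0.85, the lowest over the rats left out. RNA of a whole gland cannot tell fewer cells of a type from less RNA per cell.

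**Figure D1:**
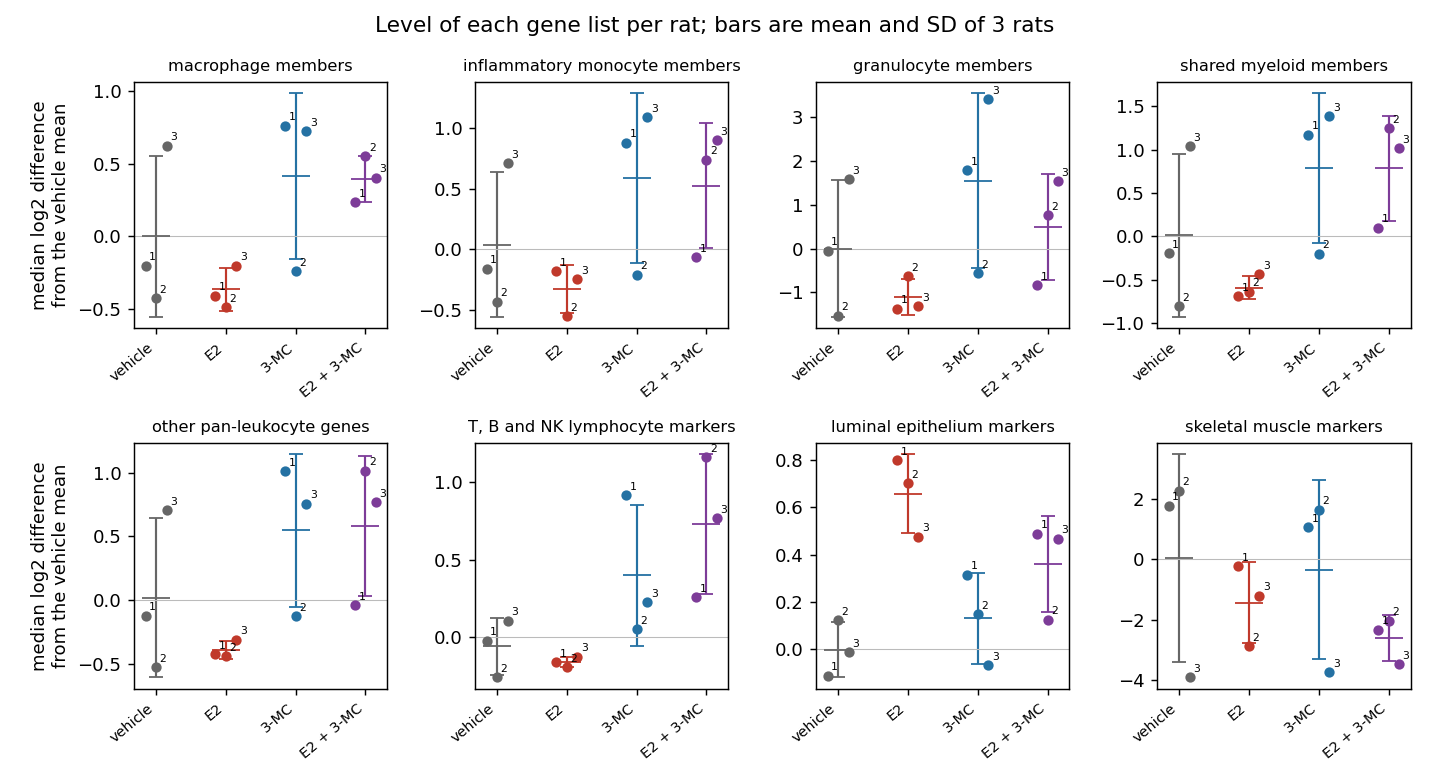
Level of 8 gene lists in each of the 12 rats, as the median log2 difference of the list's genes from the vehicle mean (vertical axis), by group (horizontal axis). Points are rats with their number and bars are the mean and SD of 3 rats. In the 4 myeloid classes vehicle rat 3 sits above the other vehicle rats and 3-MC rat 2 below the other 3-MC rats, and the skeletal muscle list runs from 2.26 in vehicle rat 2 to -3.90 in vehicle rat 3.

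Vehicle rat 3 was the highest of its group in 47 of 48 members, all but the scavenger receptor *Marco*, and vehicle rat 2 was the lowest in 39. In the 3-MC group, rat 2 was the lowest in 44 members and above the group mean in 0. In the E2 + 3-MC group, rat 1 was the lowest in 43. The median range of a member within a group was 1.44 on the log2 scale in vehicle rats, 1.58 in 3-MC rats and 1.02 in E2 + 3-MC rats, against 0.354 in E2 rats. Over all tested probe sets the medians were 0.334, 0.385, 0.305 and 0.270. The members' median range was thus above that of all tested probe sets in every group, and nearest to it with E2. Over the 12 rats the highest value of a member was in 3-MC rat 3 for 25 members, in 3-MC rat 1 or E2 + 3-MC rat 2 for 9 each, in E2 + 3-MC rat 3 for 4 and in vehicle rat 3 for 1, and in an E2 rat for 0.

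**Figure D2:**
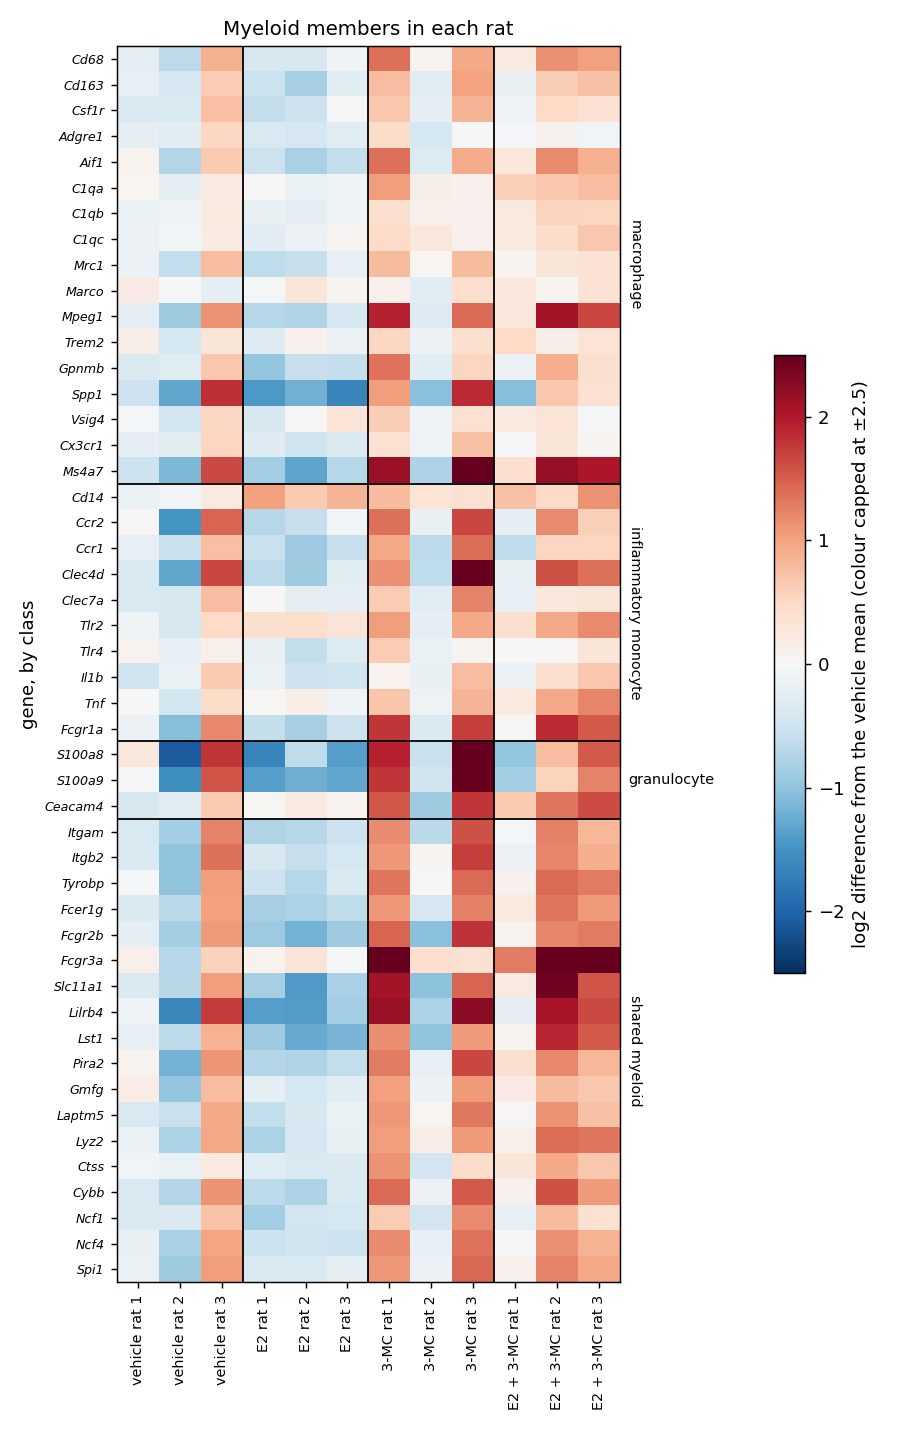
Log2 difference of each of the 48 members (rows, grouped by class) from its vehicle mean in each of the 12 rats (columns). Red is higher and blue lower, with the colour capped at 2.5 in either direction. The column of vehicle rat 3 is red in almost every row and that of 3-MC rat 2 is much paler than its neighbours, while the E2 columns are mostly blue, with exceptions such as *Cd14*.

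The values of other lists also varied between the rats of a group. The pan-leukocyte genes outside the list (14 genes) stood at -0.12, -0.52 and 0.70 in the vehicle rats and at 1.01, -0.12 and 0.76 in the 3-MC rats, with vehicle rat 3 and 3-MC rat 2 again apart from their groups. Skeletal muscle genes stood at 1.77, 2.26 and -3.90 in the vehicle rats, -0.22, -2.87 and -1.20 in the E2 rats, 1.06, 1.64 and -3.72 in the 3-MC rats, and -2.32, -2.02 and -3.47 in the E2 + 3-MC rats. Vehicle rat 3 and 3-MC rat 3, each high in myeloid genes within its group, had the lowest muscle levels of their groups, and vehicle rat 2 and 3-MC rat 2, the lowest in myeloid genes, had the highest, but 3-MC rat 1 was high in both. Luminal epithelium markers were higher in E2 rats (0.80, 0.70 and 0.47) than in vehicle rats (-0.11, 0.12 and -0.01). The part of muscle, epithelium and other leukocytes in the results below was not tested.

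The first question was what estradiol alone does to the myeloid genes of an ovx gland. With E2, *Cd14* was higher in every rat than in any vehicle rat and passed, and 42 of the 48 members had a lower mean than with vehicle, none of which passed. The share of probe sets that passed was 1.58% of all tested (303 higher and 67 lower), so that 1 member of 48 is near the background. A log2 change above 0 was found in 53.8% of all tested probe sets and in 6 members, *Cd14*, *Tlr2*, *Tnf*, *Marco*, *Ceacam4* and *Fcgr3a*. The median log2 change was -0.38 for macrophage, -0.39 for inflammatory monocyte, -1.21 for granulocyte and -0.56 for shared myeloid genes, against 0.02 for all tested probe sets.

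*Cd14* encodes the coreceptor that hands bacterial lipopolysaccharide (LPS) to TLR4. Its intensity was 853, 917 and 1132 in vehicle rats, 1983, 1519 and 1743 with E2, 1671, 1226 and 1263 with 3-MC, and 1612, 1344 and 2114 with E2 + 3-MC. All 9 treated rats lay above all 3 vehicle rats, where 10.1% of all tested probe sets had no overlap in this direction with E2 and 4.71% with 3-MC. The mean rose from 968 ± 146 to 1748 ± 232 with E2 (SD, n = 3 each), a log2 change of 0.84 ± 0.19 (SE) with an adjusted p of 0.0370. With 3-MC the log2 change was 0.51 (unadjusted p = 0.0166, adjusted p = 0.920) and with E2 + 3-MC it was 0.78 (adjusted p = 0.200), and neither passed in limma. *Cd14* was the only member with an unadjusted limma p under 0.05 for E2 or for 3-MC. Of all tested probe sets, 6.82% were higher and 4.89% lower at that level with E2, and 3.06% higher and 1.18% lower with 3-MC. Its interaction of the 2 treatments, -0.57, did not pass (adjusted p = 0.982). The call with E2 was lost when any single E2 rat was left out (adjusted p of 0.184, 0.0927 and 0.104), without vehicle rat 1 or 2 (0.143 and 0.111) and without E2 + 3-MC rat 1 (0.0550). It was also lost with a pseudocount of 1 (0.0525), the muscle covariate (0.0554) and the methods' t-test (0.281). The log2 change was 0.75 to 0.96 over these and the other alternatives.

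*Cd14* works in the LPS receptor pathway, of which 11 of 14 named genes were tested. *Cd14* alone passed with E2, and 6 of the 11 had a log2 change below 0. The receptor *Tlr4* had -0.38 and its partner *Ly96* -0.11, the LPS carrier *Lbp* 0.14 and the adaptor *Myd88* -0.05. The kinases *Irak1* and *Irak4* had -0.18 and 0.06, the ubiquitin ligase *Traf6* 0.12, the NF-κB subunits *Nfkb1* and *Rela* 0.02 and -0.02, and the inhibitor *Nfkbia* -0.41. None of these passed.

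Lower values with E2 and no overlap with vehicle were found in 8 members, *Ccr1*, *Ctss*, *Cx3cr1*, *Fcgr2b*, *Gpnmb*, *Lst1*, *Ncf1* and *Slc11a1*, where 8.05% of all tested probe sets were so ordered. Of these, 2 are given as examples, chosen after their values were seen. In *Ctss*, the lysosomal protease cathepsin S, the vehicle rats had 484, 449 and 607 and the E2 rats 412, 389 and 393. The inhibitory Fc receptor *Fcgr2b* had 89.0, 52.4 and 242 with vehicle and 49.1, 38.1 and 50.1 with E2. The groups were apart, but the gap of the lower vehicle rats to the E2 rats was small beside the distance to vehicle rat 3. Without vehicle rat 3 the median log2 change of all members with E2 was -0.04 in place of -0.47, and that of the inflammatory monocyte genes turned from -0.39 to 0.23.

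The second question was the effect of 3-MC alone. Every member, 48 of 48, had a higher mean with 3-MC than with vehicle, where 63.5% of all tested probe sets did, and 0 of 48 passed. No probe set on the array passed here, so the background was 0%, and 1 member (*Cd14*) had an unadjusted limma p under 0.05. The median log2 change was 0.43 for macrophage, 0.55 for inflammatory monocyte, 1.56 for granulocyte and 0.78 for shared myeloid genes, against 0.06 for all tested probe sets. In all members but *Cd14* the groups overlapped. Within same-numbered vehicle and 3-MC rats, which were taken as pairs from the values alone, the level of all members was higher with 3-MC in each of the 3 pairs, and so were 31 of 48 members, where 23.5% of all tested probe sets were. These pairs were looked at after seeing the data and have no test of their own. Without 3-MC rat 2 the median over all 48 was 1.16 in place of 0.64, and without vehicle rat 2 it was 0.31. With the rat number as a block, 0 members passed in limma as well.

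The third question was whether 3-MC changed the genes in E2-treated rats. The means of 47 of 48 members were higher with E2 + 3-MC than with E2, where 59.1% of all tested probe sets were, and *Cd14* at -0.06 was the exception. The change was at least 2-fold in 26 members and at least 1.5-fold in 38, where 0.83% and 2.49% of all tested probe sets were. All 3 E2 + 3-MC rats lay above all 3 E2 rats in 39 members, where 12% of all tested probe sets did, among them 18 of 18 shared myeloid, 14 of 17 macrophage, 5 of 10 inflammatory monocyte and 2 of 3 granulocyte genes. None passed in the 4-group model, in which 0% of all tested probe sets passed, and the smallest adjusted p was 0.342 (limma). The unadjusted p was under 0.05 in 32 members (17 shared, 11 macrophage, 4 monocyte and 0 granulocyte genes), where 5.99% of all tested probe sets were higher at that level. The median log2 change was 1.44 for shared myeloid, 1.62 for granulocyte, 0.74 for inflammatory monocyte and 0.72 for macrophage genes, against 0.05 over all tested probe sets.

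Whether these members passed depended on the model. With only the E2 and E2 + 3-MC rats in the limma fit, 28 of 48 members passed, all higher, where 359 of 23371 probe sets did (1.54%). They were 16 of 18 shared myeloid, 8 of 17 macrophage, 2 of 3 granulocyte and 2 of 10 inflammatory monocyte genes. The fit of 2 groups leaves out the vehicle and 3-MC rats, in which the members varied most. The methods' t-test, which uses the same 6 rats without moderation, passed 0 members, with a smallest adjusted p of 0.436. In the limma fit of 2 groups the adjusted p was 0.00763 for *Fcer1g*, 0.00784 for *Aif1*, 0.00904 for *Lst1*, 0.0141 for *C1qa* and 0.0407 for *C1qb*. *C1qc* did not pass in that fit (adjusted p = 0.0877, limma). The unadjusted count of 32 in the 4-group model was 17 without E2 + 3-MC rat 2 and 19 without E2 + 3-MC rat 3.

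**Figure D3:**
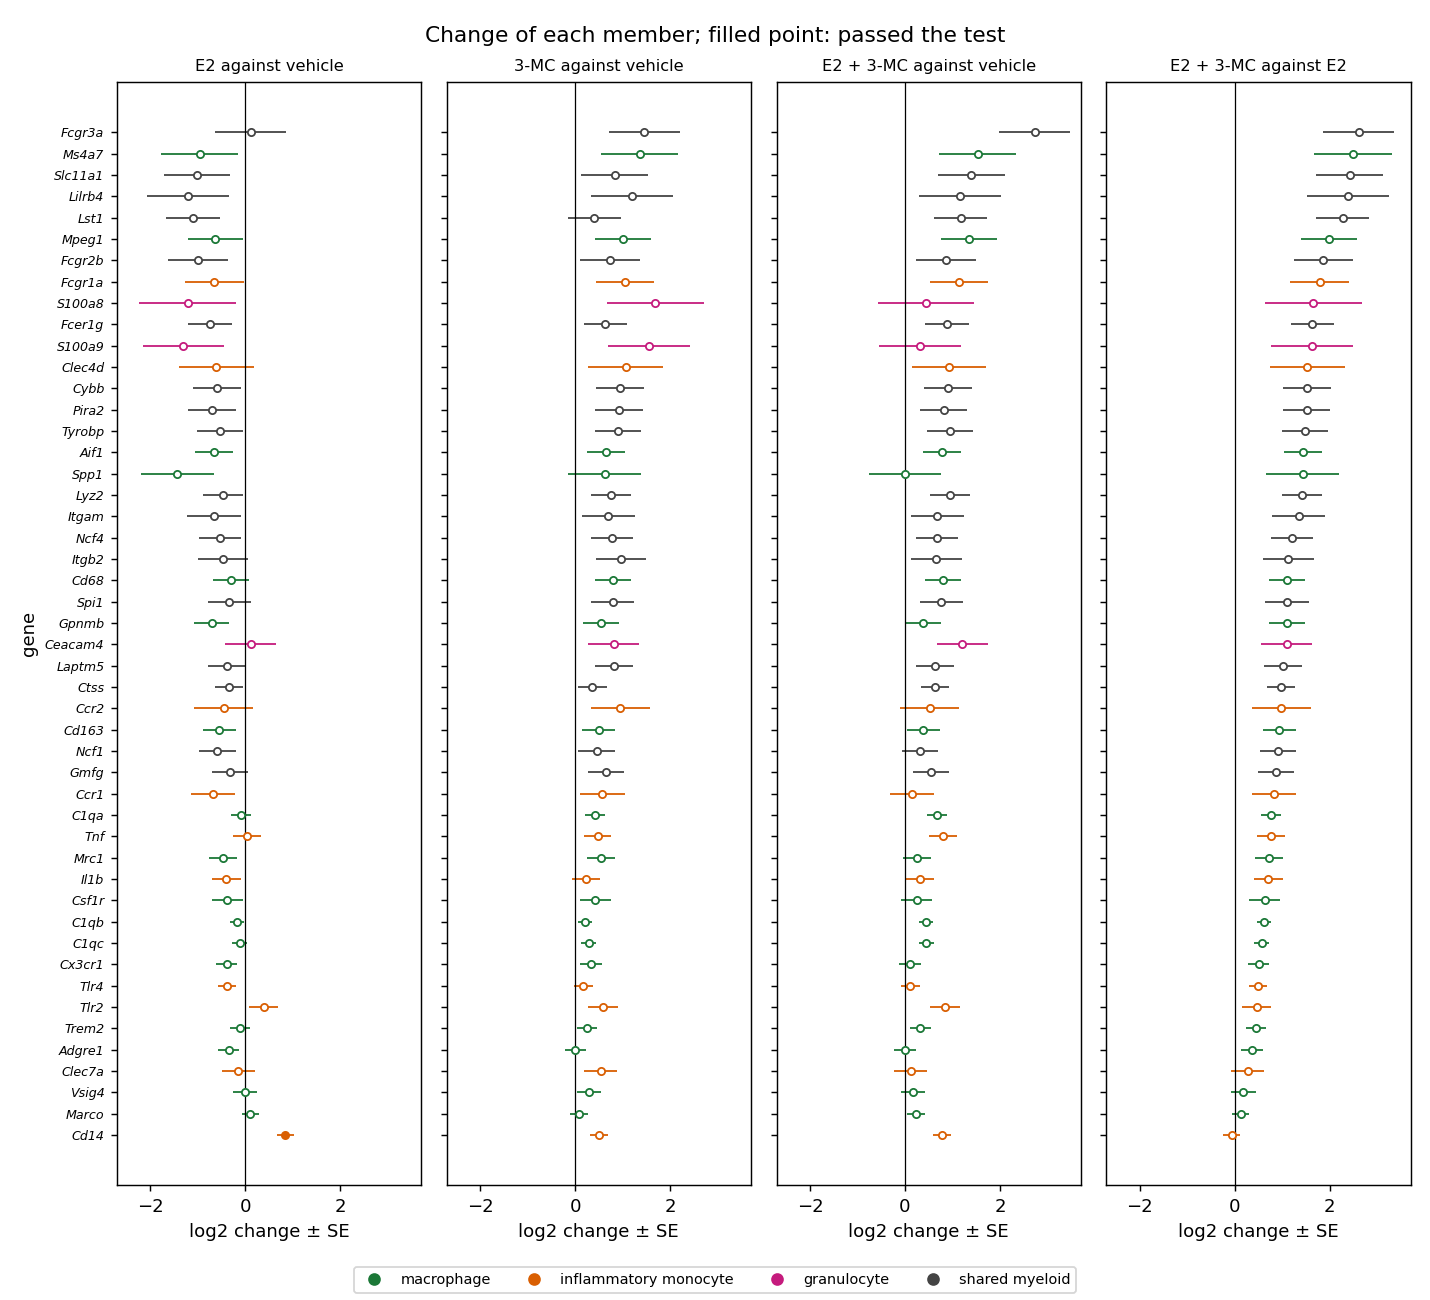
Log2 change of each of the 48 members (rows, ordered by the change of E2 + 3-MC against E2) in 4 comparisons, with the SE of the 4-group limma model as bars and the class as colour. Filled points passed. Against vehicle, E2 leaves 42 members left of 0 and 3-MC leaves 48 right of 0, and against E2 the combination leaves 47 right of 0, with *Cd14* at the bottom as the 1 filled point, for E2.

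The 3 genes of complement C1q, the molecule that starts the classical complement cascade and that macrophages make, separated E2 + 3-MC from E2. *C1qb* had 432, 420.3 and 454 with E2 and 587, 727 and 722 with E2 + 3-MC, with 434, 462 and 588 in vehicle and 654, 539 and 529.6 in 3-MC rats. Its change of E2 + 3-MC against E2, 0.62 ± 0.14 (SE) on the log2 scale, was small but carried the smallest p of the members (unadjusted p = 0.00086, adjusted p = 0.342, limma). *C1qa* had 610.1, 544 and 568 with E2 and 931, 990.4 and 1054 with E2 + 3-MC, a log2 change of 0.77. In vehicle rats *C1qa* had 632, 515 and 706 and in 3-MC rats 1273, 682 and 656, with rat 1 apart from the other two. *C1qc* had 930.3, 1030.0 and 1196 with E2 and 1341, 1562 and 1818 with E2 + 3-MC, a log2 change of 0.57, with 1028, 1083 and 1316 in vehicle and 1586, 1384 and 1231 in 3-MC rats. In all 3 the E2 + 3-MC rats lay above the E2 rats without overlap, and in *C1qa* and *C1qc* they also lay above all vehicle rats.

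The other macrophage genes differed widely in their change of E2 + 3-MC against E2, from 0.13 in *Marco* to 2.49 in *Ms4a7* on the log2 scale. *Aif1*, the actin-bundling protein IBA1 used to stain macrophages, had 291, 238 and 277 with E2 and 519, 999 and 813 with E2 + 3-MC (log2 change 1.43). Its vehicle rats had 456, 252 and 682 and its 3-MC rats 1135, 334 and 836, so that 1 rat of either group lay near the E2 rats. *Cd68*, a lysosomal membrane glycoprotein of macrophages, had 316, 316 and 398 with E2 and 498, 964 and 884 with E2 + 3-MC (log2 change 1.10). Its vehicle rats had 359.7, 263 and 803 and its 3-MC rats 1125, 452 and 831. The scavenger receptors *Mrc1* and *Cd163* had 0.72 and 0.94, *Csf1r*, the receptor of the macrophage growth factor, had 0.63, and *Adgre1*, the gene of the F4/80 antigen, had 0.36.

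The shared myeloid genes include the receptors for antibody and their signaling chains. *Fcer1g*, the common signaling chain of Fc receptors, had 758, 782 and 873 with E2 and 1609, 3479 and 2872 with E2 + 3-MC, a log2 change of 1.63 ± 0.46 (SE). In vehicle rats it had 1056, 845 and 2797 and in 3-MC rats 2890.5, 1009.7 and 3262. Among the vehicle and 3-MC rats, all but vehicle rat 3 and 3-MC rats 1 and 3 were below the lowest E2 + 3-MC rat. *Tyrobp* (DAP12), a second chain of this kind, had a log2 change of 1.47, and the leukocyte integrin genes *Itgam* and *Itgb2* had 1.35 and 1.13. *Lst1*, a small membrane protein of leukocytes, had 73.0, 52.4 and 57.7 with E2 and 158, 596 and 462 with E2 + 3-MC. Its vehicle rats had 126, 88.4 and 283 and its 3-MC rats 352, 65.5 and 329, so the E2 rats and 3-MC rat 2 were the 4 lowest. *Lst1* was the 1 member with a positive interaction of E2 and 3-MC at an unadjusted p under 0.05 (log2 1.87, unadjusted p = 0.0346, adjusted p = 0.982, limma), and 1.59% of all tested probe sets had one.

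*Fcgr3a*, the low-affinity receptor for IgG on macrophages and NK cells, had its values far apart within the 3-MC and E2 + 3-MC groups. It had 129, 65.4 and 183 in vehicle rats, 125, 151 and 112 with E2, 1541, 163 and 158 with 3-MC, and 311, 2043 and 1003 with E2 + 3-MC. The values of 3-MC rat 3, the rat with the most myeloid maxima, lay within the vehicle range, while 3-MC rat 1 was far above. *C1qa*, *C1qb* and *C1qc* also had 3-MC rat 1 highest and rat 3 lowest of their group. The log2 change of *Fcgr3a* against vehicle with E2 + 3-MC was 2.73 ± 0.75 (SE), the largest of the members, with an unadjusted p of 0.00279 and an adjusted p of 0.304 in limma. The lymphocyte and NK list had the same high rats, 0.92 in 3-MC rat 1 against 0.05 and 0.23 in the other two, and 0.26, 1.16 and 0.77 with E2 + 3-MC. What lymphoid cells add to *Fcgr3a* was not tested, nor was whether its probe set also reads a related Fc receptor gene.

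**Figure D4:**
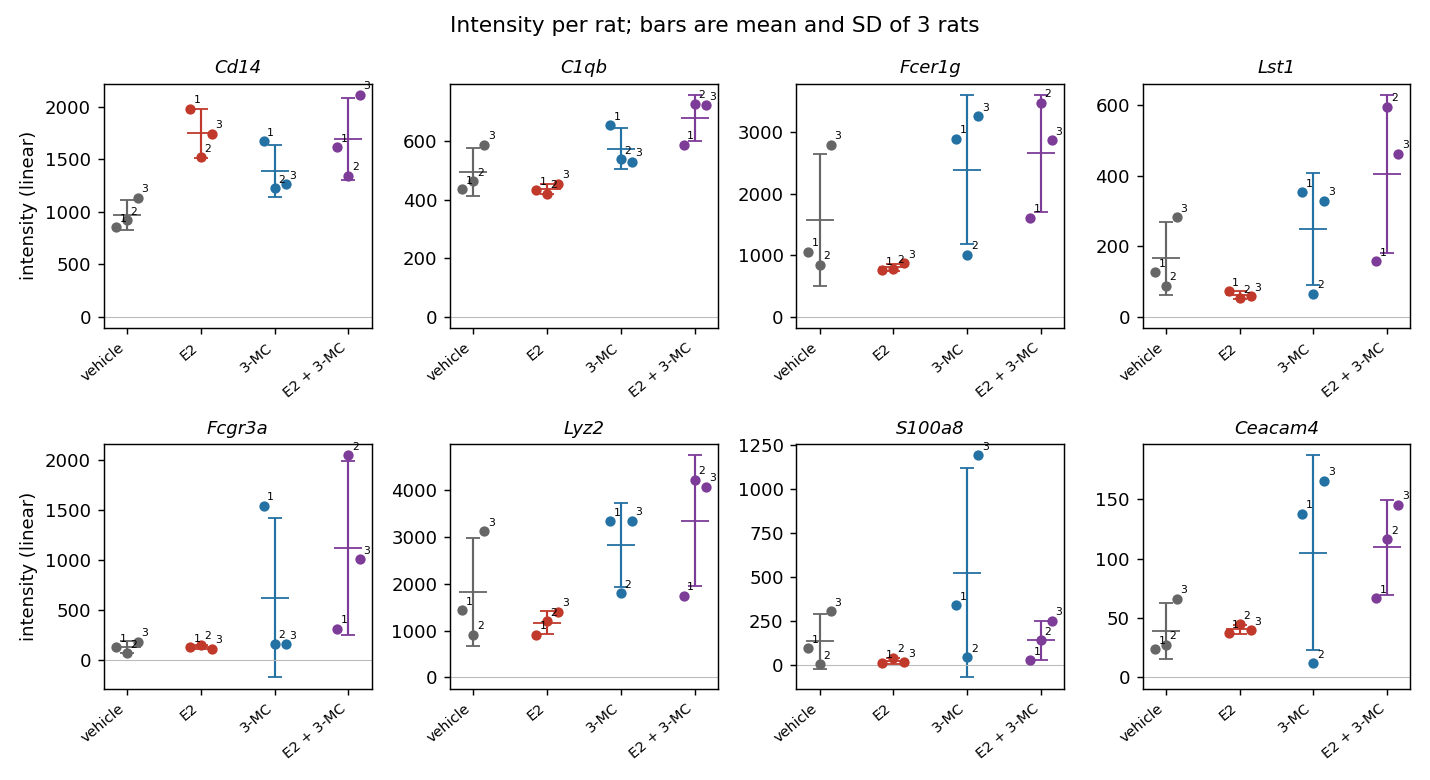
Linear intensity of 8 members in each rat (vertical axis, starting near 0 in each panel with its own scale) by group, with rat numbers beside the points and bars for the mean and SD of 3 rats. *Cd14* lies above vehicle in all treated rats, *C1qb* and *Fcer1g* separate E2 + 3-MC from E2, *Fcgr3a* is high in 3-MC rat 1 and in E2 + 3-MC rats, and *S100a8* reaches 1193 in 3-MC rat 3.

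Of the brightest shared myeloid genes, *Lyz2* and *Gmfg* are given beside *Fcer1g*. *Lyz2*, the lysozyme of macrophages, had 913, 1194 and 1405 with E2 and 1742, 4220.2 and 4069 with E2 + 3-MC (log2 change 1.42), with 1429, 913 and 3119 in vehicle and 3337, 1802 and 3341 in 3-MC rats. *Gmfg*, a regulator of actin branching in leukocytes, had 779, 674 and 762 with E2 and 1068, 1614 and 1473 with E2 + 3-MC (log2 change 0.87). Its vehicle rats had 1051, 465 and 1597 and its 3-MC rats 1886, 836 and 1950.2. In both genes the E2 + 3-MC rats lay above the E2 rats, and both passed in the fit of 2 groups (adjusted p of 0.0299 and 0.0212, limma) but not in the 4-group model. All 5 measured genes of the NADPH oxidase, the complex that makes superoxide in phagocytes, were higher with E2 + 3-MC than with E2 without overlap, where 12% of all tested probe sets were. Of the 5, 3 (*Cybb*, *Ncf1* and *Ncf4*) are members already counted above. *Cybb*, the catalytic subunit, had 1.51. *Slc11a1*, a metal transporter of the phagosome, had 2.42, and *Spi1* had 1.10.

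Of the inflammatory monocyte genes, *Fcgr1a* and *Clec4d* had the largest log2 changes of E2 + 3-MC against E2, 1.79 and 1.53, and *Cd14* and *Clec7a* the smallest, -0.06 and 0.27. *Fcgr1a*, the high-affinity receptor for IgG, had 205, 171 and 216 with E2 and 324, 1192 and 942 with E2 + 3-MC, without overlap. Its vehicle rats had 284, 144 and 752 and its 3-MC rats 1129, 245 and 1088. *Ccr2*, the receptor that draws monocytes out of the blood, had 159, 176 and 255 with E2 and 230.1, 632 and 419 with E2 + 3-MC, so the groups overlapped (log2 change 0.98). Its vehicle rats had 278, 85.5 and 770.0 and its 3-MC rats 725, 234 and 898. The cytokine genes *Tnf* and *Il1b* had log2 changes of 0.77 and 0.71, and *Tlr2* and *Tlr4* 0.46 and 0.49. These differences between members were not tested.

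Of all members, *S100a8* had the widest range within the vehicle group, 3.88 on the log2 scale, and within the 3-MC group, 4.26. *S100a8*, a subunit of the neutrophil protein calprotectin, had 98.1, 5.93 and 308 in vehicle rats, 14.1, 44.3 and 19.9 with E2, 341, 47.0 and 1193 with 3-MC, and 31.4, 142 and 254 with E2 + 3-MC. *S100a9*, the other subunit, had 75.8, 17.0 and 268 in vehicle rats, 20.8, 24.6 and 22.4 with E2, 312, 51.4 and 986 with 3-MC, and 37.1, 125 and 209 with E2 + 3-MC. Both were highest in 3-MC rat 3 and low in all E2 rats, and the 3-MC group overlapped with vehicle. *Ceacam4*, a receptor of the CEA family on granulocytes, had 23.7, 27.8 and 66.5 in vehicle rats, 37.2, 45.0 and 39.7 with E2, 138, 12.1 and 166 with 3-MC, and 66.6, 117 and 146 with E2 + 3-MC. In *Ceacam4* every E2 + 3-MC rat was above every vehicle and E2 rat, with an unadjusted p of 0.0418 and an adjusted p of 0.496 against vehicle in limma. The lowest E2 + 3-MC rat, at 66.6, was barely above the highest vehicle rat, at 66.5. The log2 changes of *S100a8* and *S100a9* were 1.65 and 1.62 for E2 + 3-MC against E2 and -1.25 and -1.24 against 3-MC. No granulocyte member passed in the 4-group model, while *S100a9* and *Ceacam4* passed against E2 in the fit of 2 groups (adjusted p of 0.0450 and 0.0215, limma).

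Of 20 other granulocyte genes named, 17 had a probe set of their symbol alone, and 11 were above the filter on low values and were tested. Among these 11, *Mpo*, the myeloperoxidase of neutrophil granules, was the 1 that passed, and only with E2, where 1.58% of all tested probe sets passed. *Mpo* had 809, 708 and 653 in vehicle rats and 464, 371 and 421 with E2, without overlap. Of all tested probe sets, 8.05% were lower with E2 without overlap. It fell by 0.77 on the log2 scale (SE 0.16, adjusted p = 0.0289, limma). In 3-MC rats it had 797, 697 and 626, and in E2 + 3-MC rats 459, 408 and 598. In the vehicle and 3-MC groups *Mpo* was highest in rat 1, and *S100a8* and *S100a9* were highest in rat 3. In the E2 + 3-MC group rat 3 was the highest for all 3 genes. The vehicle rats were closer together in *Mpo* than in *S100a8* and *S100a9*. *Cxcr2*, the chemokine receptor of neutrophils, had -1.04 with E2 (adjusted p = 0.0648, limma) and did not pass. Of the 11 genes, 6 had a log2 change below 0 with E2 and 5 above 0, up to 0.39 in *Lcn2*. The median of the 11 was -0.11 with E2, 0.06 with 3-MC and 0.21 for E2 + 3-MC against E2. For the 3 granulocyte members these medians were -1.21, 1.56 and 1.62.

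With both treatments, all 48 members had a higher mean than with vehicle, where 64.9% of all tested probe sets did. None of the 48 passed, and 0.163% of all tested probe sets passed. An unadjusted limma p under 0.05 was found in 10, *Cd14*, *Fcgr3a*, *C1qa*, *C1qb*, *C1qc*, *Lyz2*, *Mpeg1*, *Tlr2*, *Tnf* and *Ceacam4*, where 6.99% of all tested probe sets were higher at that level. The groups did not overlap in 6, *Cd14*, *C1qa*, *C1qc*, *Ctss*, *Fcgr3a* and, by a very narrow gap, *Ceacam4*, where 10.5% of all tested probe sets were so ordered. The median log2 change was 0.67, and 0.15 with the level of the skeletal muscle genes as a covariate.

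The direction of the difference between E2 + 3-MC and 3-MC depended on the rats included. Against 3-MC, 24 members had a higher and 24 a lower mean with E2 + 3-MC, where 53.6% of all tested probe sets were higher. In limma 0 members passed (0.111% of all tested probe sets did) and 0 had an unadjusted p under 0.05, where 2.81% of all tested probe sets were higher and 2.22% lower at that level. The median log2 change was -0.0092, and it was -0.48 without 3-MC rat 2, 0.29 without E2 + 3-MC rat 1 and -0.43 with the muscle covariate. *Fcgr3a* had the highest log2 change, 1.28, and *S100a8* the lowest, -1.25. All 48 members overlapped between these groups, where 4.48% of all tested probe sets were higher and 3.48% lower without overlap. The interaction of E2 and 3-MC was above 0 in 43 members with a median of 0.38, where 49% of all tested probe sets were above 0, and 0 members passed in limma. An unadjusted p under 0.05 was found in *Lst1* (higher) and *Cd14* (lower), and 2.83% of all tested probe sets were lower at that level. Without 3-MC rat 2 that median was -0.0054.

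Of the lists beside the members, other leukocyte and macrophage lists were mostly higher with E2 + 3-MC than with E2, and those of epithelium, muscle and mast cells mostly lower. Over all tested probe sets, 59.1% were higher with E2 + 3-MC than with E2, with a median log2 change of 0.05. For E2 against vehicle these values were 53.8% and 0.02. The pan-leukocyte genes were higher with E2 + 3-MC than with E2 in 14 of 14, with a median log2 change of 0.89, and lymphocyte markers in 11 of 11 tested, with 0.87. Lysosome and lipid handling genes of macrophages were higher in 15 of 17 with a median of 0.20, and the genes of resident and alternatively activated macrophages in 7 of 9 tested with 0.27. Dendritic cell and MHC class II genes were higher in 14 of 14 with a median of 0.49. No gene of these 5 lists passed in any comparison. Of the myeloid growth factors and their receptors, 6 were tested beside the member *Csf1r*. All 6 had a lower mean with E2 than with vehicle and a higher one with E2 + 3-MC than with E2, with median log2 changes of -0.36 and 0.53, and 0 passed. Luminal epithelium markers were lower in 20 of 21 with a median of -0.35, basal epithelium markers in 6 of 8 with -0.36, skeletal muscle markers in 12 of 12 with -1.11 and mast cell genes in 7 of 8 with -0.13, and 0 passed. Adipocyte markers were higher in 12 of 12 with a median of 0.23. Endothelial markers were higher in 7 of 9 and fibroblast markers in 9 of 12, with medians of 0.14 and 0.08.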

How the data were processed

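Per the labels, the arrays were processed with Expression Console and PLIER, and the deposited values are linear intensities. The methods name Expression Console for quality checks and PLIER after import into GeneSpring. The methods also name quantile normalization, scaling to the control median and removal of the lowest intensities in GeneSpring, but the intensities used here still hold every probe set, have unequal array medians and are not centred, so they were used as they are. From them log2(intensity + 16) was tested with limma 3.58.1 in R 4.3.3, for probe sets with a mean above the 20th percentile, in 1 model of 4 groups and 6 comparisons. The genes and lists were chosen with earlier results of these data known. Genes named with the values of every rat were those that passed, the 8 with the smallest p, the 3 brightest of each class and all granulocyte members. Probe sets were named from GEO's platform annotation (15310 with 1 symbol, 323 with several, 13581 unnamed), and all 48 members matched a GRCr8 position. Motifs were 12 in number. Rats carry numbers 1 to 3, and deviations of same-numbered rats correlated at 0.341, 0.442 and 0.564 between vehicle and 3-MC, so these were taken as pairs, on values alone. Other groups did not pair (0.130, 0.081 and 0.137 for E2 and E2 + 3-MC). Alternatives were scaling, pseudocount, filter, samples, variance model, replicate block, muscle covariate, the methods' t-test with adjustment, and leaving out each rat. The code was tested on simulated data. The number of arrays limits precision, and an exact permutation of 3 against 3 cannot go below p = 0.1. Figures used Python 3.11.15 and matplotlib 3.10.9.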

Additional observations from a re-analysis of the deposited data

How the results depend on the processing

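The 1 member that passed with E2 (*Cd14*) became 0 under the methods' t-test, a pseudocount of 1 and the skeletal muscle covariate, and 0 to 1 when each rat was left out. For E2 + 3-MC against E2, the number that passed went from 0 to 28 with only those 2 groups in the fit, and the 32 members with an unadjusted p under 0.05 ranged from 17 to 40 over the rats left out. In this comparison 47 of 48 members were higher under every setting but 2, without E2 + 3-MC rat 2 (48 of 48) and with the filter at the 50th percentile (39 of 40 tested). The median of the inflammatory monocyte genes with E2 ran from -0.48 to 0.23 over the rats left out (-0.39 with all), and their interaction from -0.37 to 0.53. Their median with E2 + 3-MC against vehicle was 0.015 with the muscle covariate in place of 0.65. With the rat number as a replicate block, 1 member passed with E2 and 0 in each other comparison, and in the 6 arrays of vehicle and 3-MC alone, a fit added after seeing the data, 0 passed, so the block changed no call. Of the other values of the classes and counts, 696 were counted as little changed, by the size of the shift and not by its direction. Some medians changed sign. The median of all members with E2 + 3-MC against 3-MC went from -0.0092 to 0.29 without E2 + 3-MC rat 1. That of the granulocyte genes with E2 + 3-MC against vehicle went from 0.44 to -0.44 without vehicle rat 2. For causes other than the samples in a fit, the cause was not tested. The mean over probe sets of a gene was not run, since each member had 1. A lone array rests on the pooled spread, and dim members such as *S100a8* depend most on the pseudocount.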
